A study of Homo sapiens with 12 samples.

Results

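The transcripts of THP1 cells kept in co-culture with EGCG-treated senECs were compared with those of THP1 cells kept with senECs that had received no EGCG. THP1 is an established human monocytic leukaemia line, and the labels give it as wild type. The senECs are human umbilical vein endothelial cells (HUVECs) made senescent with etoposide, a topoisomerase inhibitor that breaks DNA, and the EGCG-treated senECs received etoposide and then EGCG (epigallocatechin gallate), the main catechin of green tea. The endothelial cells were collected and washed before the co-culture, so EGCG was given to the endothelial cells and not to the THP1 cells. The 2 cell types then shared medium across a transwell membrane for 24 h, and the THP1 cells were taken out and given 100 ng/ml LPS (bacterial lipopolysaccharide) for 2 h before RNA isolation. All samples of the study, including THP1 mono-culture and THP1 with control ECs (given DMSO, the solvent), therefore come from LPS-stimulated cells in endothelial medium. The comparison uses 6 of the 12 samples: senECs 1, 2 and 5 and EGCG-treated senECs 1, 2 and 5, the numbers being those of the labels. The rule keeps every gene with a total of at least 10 counts over the 12 samples, which was 25873 of the 58735 rows. The design asks whether giving EGCG to senECs changes the transcripts of the monocytes beside them.

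Senescent endothelial cells release cytokines, chemokines, proteases and vesicles, together called the senescence-associated secretory phenotype, and monocytes respond to such signals. LPS binds TLR4 on monocytes and acts through MYD88 and NF-κB to induce genes such as IL1B, CXCL8 and TNFAIP3, and through a second branch to induce interferon-stimulated genes. Cholesterol synthesis genes are driven by the SREBP transcription factors when cell sterol is low, and INSIG1 is both a target and a brake of this system.

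Total counts ranged from 15997927 to 19126426 over the 6 samples, with a median of 17794823. A gene with no count in the one with the smallest scaled library could still have been present at up to 0.191 CPM (the count scaled to the library size with TMM factors), for counting error alone. Replicates differed beyond the noise of counting, the chi-square of their counts being 9.23 to 33.7 times its degrees of freedom, and each was kept as its own sample. Monocyte transcripts made up 0.723% to 0.922% of counts and included AZU1, ELANE and PRTN3, granule proteases of immature myeloid cells, each at 800.1 CPM or more in the 6 samples. The 32 endothelial transcripts listed had 23 tested members and made up 0.00492% to 0.00591% of counts. In such bulk samples fewer cells of a type and less RNA per cell cannot be told apart. EGFL7, at 20.8 to 30.4 CPM, supplied the largest part of them. In THP1 mono-culture, which held no endothelial cells, these transcripts made up 0.00448% to 0.00533% of counts and EGFL7 was at 17.8 to 21.7 CPM, so most of this share was also measured without endothelial cells. The endothelial share averaged 0.00551% ± 0.000521 with EGCG-treated senECs and 0.00556% ± 0.000183 with senECs (SD, n = 3; exact two-sided permutation test, p = 0.9, where 3 against 3 samples cannot give less than 0.1). Mitochondrial protein genes took 2.85% of counts in EGCG-treated senECs 5, 4.33% in EGCG-treated senECs 2 and 3.46% to 3.74% in the other 4 samples.

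No gene passed the test between the groups in the fit with group as its only term and the filter of at least 10 counts in total. EdgeR's quasi-likelihood test with Benjamini-Hochberg adjustment called 0 of the 25873 genes (0%), with a smallest adjusted p of 1. At an unadjusted p under 0.05 there were 321 genes higher (1.24%) and 254 genes lower (0.982%) with EGCG-treated senECs, 575 in all, and DESeq2 called 0 genes with 373 at an unadjusted p under 0.05. Testing every gene with a count, 34767 genes, gave 14 calls in edgeR, 9 higher and 5 lower. These included MX1, OAS2 and OAS3, which were higher, S100A8 and S100A9, which were lower, and genes with near-identical copies. The 3 samples with EGCG-treated senECs lay above all 3 with senECs for 820 genes (3.17%) and below them for 597 genes (2.31%).

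Most expressed genes had narrow intervals around these differences. Among the 14308 genes with a mean of at least 1 CPM over the 6 samples, the median standard error of the log2 fold change was 0.15. The 95% interval lay within a 2-fold change in either direction for 12751 of them (89.1%) and within 1.5-fold for 9734 (68.0%). For the genes beyond the wider of these limits the interval reached a 2-fold change in at least 1 direction. Of the 14308 genes, 1265 were higher and 1216 lower with EGCG-treated senECs in all 3 same-numbered pairs of samples.

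Each of the 6 samples shared more with the same-numbered sample of the other group than with either sample of its own group, counted as genes at least 2-fold apart. EGCG-treated senECs 1 and senECs 1 differed by at least 2-fold in 3 of the 14308 genes on the log2(CPM + 2) scale, the samples numbered 2 in 5 genes and those numbered 5 in 46 genes. In contrast, 26 to 221 genes differed by at least 2-fold between 2 samples of the same group, and 26 to 264 between samples of different group and number. All distances of more than 44 genes involved a sample numbered 5. By the root mean square of the differences the order held for numbers 1 and 2 alone, since senECs 5 and EGCG-treated senECs 5 were 0.31 apart and each was 0.30 and 0.29 from sample 2 of its own group. The standard deviation over genes of the same-numbered difference was 0.18 for number 1, 0.19 for number 2 and 0.30 for number 5, and 35 of the 46 genes of number 5 were higher with EGCG-treated senECs.

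**Figure D1:**
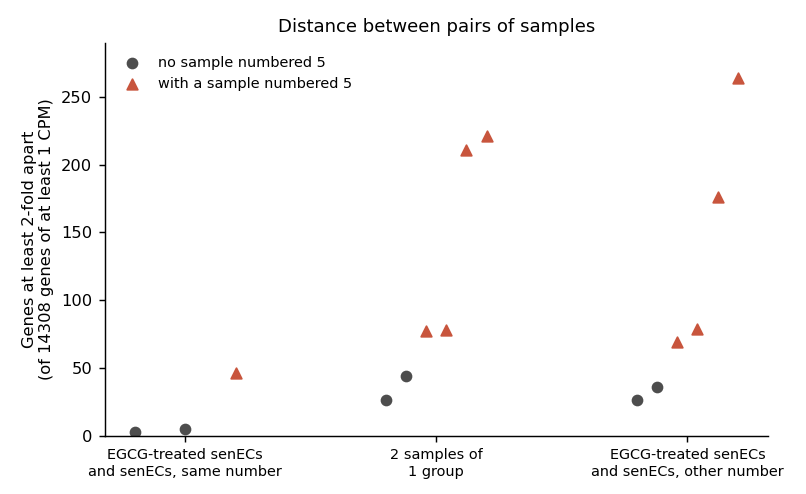
The vertical axis counts genes at least 2-fold apart, of 14308 genes with a mean of at least 1 CPM, and each point is 1 pair of samples, grouped on the horizontal axis by how the pair is related. Same-numbered pairs of the 2 groups sit at 3, 5 and 46 genes, while pairs within a group reach 221.

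No difference in the inflammatory genes that LPS induces passed the test. In a list of 17 such genes taken from the study, 0 were called, 7 were higher and 10 lower, and the median log2 fold change was -0.11 beside -0.01 for all genes of at least 1 CPM. None of the 17 had an unadjusted p under 0.05 or groups without overlap. In all 3 same-numbered pairs 5 of them were lower and 0 higher, beside 1216 and 1265 of the 14308 genes of at least 1 CPM. Since the list was picked by the study from these samples, its direction is not independent evidence.

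CXCL8 (chr4:73740506-73743716, plus strand in GENCODE release 29 on GRCh38, as are the other gene positions), the neutrophil chemokine interleukin 8, was at 276, 432 and 930.5 CPM with senECs 1, 2 and 5 and at 251, 408 and 771 CPM with EGCG-treated senECs 1, 2 and 5. The highest values in both groups were those of number 5, and the ranges of the groups overlapped almost completely. CXCL8 was lower in all 3 same-numbered pairs, by 0.14, 0.08 and 0.27 on the log2(CPM + 2) scale. The mean was 546 ± 342 CPM with senECs against 476 ± 267 CPM with EGCG-treated senECs (SD, n = 3), beside 451 ± 234 with control ECs and 488 ± 181 in mono-culture. The log2 fold change was -0.20, with a 95% interval from -1.07 to 0.67.

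IL1B, the precursor of interleukin 1β, was at 172, 235 and 866 CPM with senECs and at 156, 260 and 747 CPM with EGCG-treated senECs, in the order 1, 2 and 5. Its log2 fold change of -0.13 had an interval from -1.43 to 1.18, which reached past 2-fold on both sides. CCL2, a monocyte chemokine, was at 8.31, 11.5 and 39.6 CPM against 5.12, 15.6 and 33.5 CPM. IL7R, the interleukin 7 receptor chain, ran from 2.58 to 43.3 CPM with senECs and from 3.59 to 46.3 CPM with EGCG-treated senECs. For each of these genes the spread between samples of a group exceeded the difference between the groups.

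Within the LPS pathway, MYD88 varied less between samples than TLR4 and NFKB1. TLR4, the LPS receptor, was at 29.01, 40.5 and 48.5 CPM with senECs and at 21.1, 41.4 and 55.3 CPM with EGCG-treated senECs. MYD88, the adaptor of TLR4, was at 63.5, 65.4 and 67.9 CPM with senECs and at 56.8, 60.4 and 65.2 CPM with EGCG-treated senECs. MYD88 was lower in all 3 same-numbered pairs, but its groups overlapped and its log2 fold change of -0.11 had an interval from -0.33 to 0.11. NFKB1, a subunit of NF-κB, was at 187, 223 and 330.1 CPM against 176, 240.1 and 354 CPM. IL6 stayed between 0.103 and 0.604 CPM and was near the limit of detection in both groups, and IL12B, the p40 subunit of interleukin 12, was at 1.29 to 4.12 CPM.

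**Figure D2:**
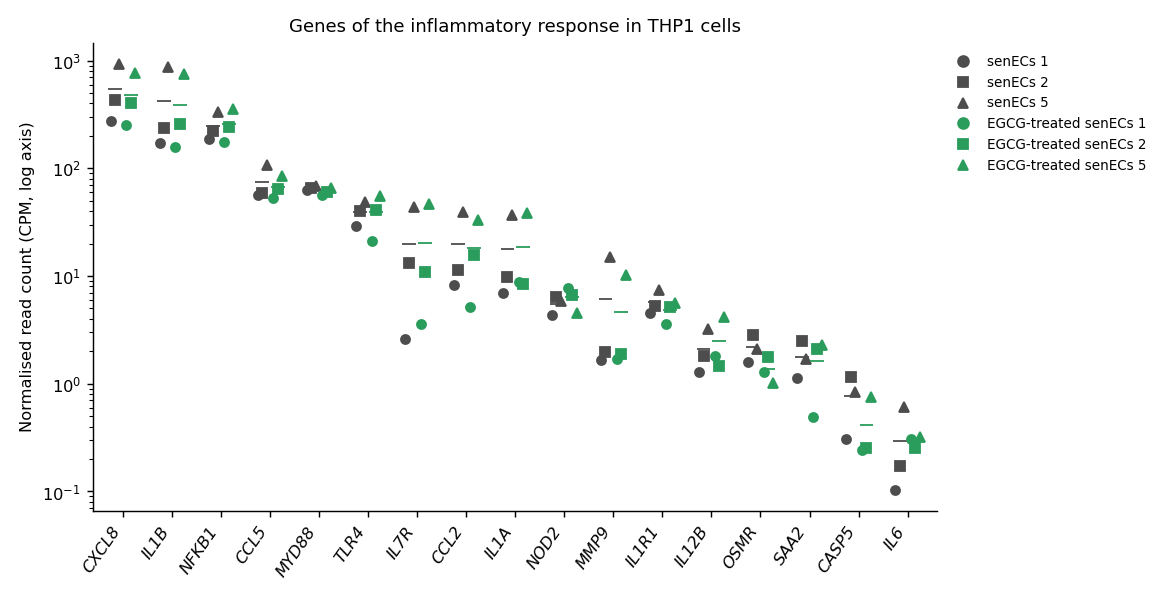
Normalised read counts in CPM on a log axis for 17 inflammatory genes, with grey symbols for senECs, green symbols for EGCG-treated senECs, a circle, square or triangle for number 1, 2 or 5, and a short line at each group's mean. For CXCL8 the triangles sit at 930.5 and 771 CPM and the circles at 276 and 251 CPM, so the samples sort by number rather than by group.

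The wider lists of the LPS response gave the same counts of calls. Of 94 tested genes of the TNF-NF-κB response, 0 had an unadjusted p under 0.05 in either direction, and their median log2 fold change was -0.02. The same held for 22 chemokines, 30 immediate early genes of the AP-1 and EGR families and 32 LPS receptor and adaptor genes, with medians of -0.07, -0.01 and 0.00. Of the 94 genes, 37 were higher and 57 lower, with same-numbered medians of -0.03, -0.02 and -0.06 for numbers 1, 2 and 5. In all 3 pairs 3 of them were higher and 19 lower, beside 1265 and 1216 of the 14308 genes of at least 1 CPM. The chemokines had 2 and 4 such genes, the immediate early genes 1 and 6, and the receptor and adaptor genes 2 and 3. These leanings were not tested. TNFAIP3, an inhibitor of NF-κB, had the highest CPM of the TNF-NF-κB genes, at 1001, 1041 and 1426 CPM with senECs against 936, 998 and 1517 CPM with EGCG-treated senECs. Of 35 LPS-induced cytokine genes, 2 had an unadjusted p under 0.05, both with low counts: TNFSF10, the death ligand TRAIL, which was at 0.206, 0.289 and 0.665 CPM with senECs against 1.04, 1.27 and 0.804 CPM with EGCG-treated senECs, and IL36G, which had no count in the 3 senEC samples and 0 to 0.429 CPM with EGCG-treated senECs.

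S100A8 and S100A9, the calcium-binding proteins that form calprotectin, varied widely among the samples. S100A8 (chr1:153390032-153391188, minus strand) was at 33.7, 77.9 and 521 CPM with senECs 1, 2 and 5 and at 24.8, 67.2 and 200.2 CPM with EGCG-treated senECs 1, 2 and 5. S100A9 was at 212, 434 and 1423 CPM with senECs and at 143, 406 and 726 CPM with EGCG-treated senECs. Both genes were lower in all 3 same-numbered pairs, while the groups overlapped and the intervals of the log2 fold changes ran from -2.86 to 0.64 and from -1.95 to 0.55. Without senECs 5 alone the log2 fold changes turned to 0.81 and 0.40. That fit kept EGCG-treated senECs 5, the highest sample of its group for both genes.

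Genes of cholesterol and fatty acid synthesis leaned higher with EGCG-treated senECs. Of 32 tested members, 26 were higher and 6 lower, with a median log2 fold change of 0.11 beside -0.01 for all genes of at least 1 CPM, but 0 passed the test, 2 (INSIG1 and FADS2) had an unadjusted p under 0.05, both higher, and 1 had groups that did not overlap. Over all genes tested 1.24% were higher at an unadjusted p under 0.05 and 3.17% did not overlap in the higher direction, and 1 of 32 is about the latter share. Of the 14308 genes of at least 1 CPM, 93 were higher at an unadjusted p under 0.05 and 277 did not overlap in that direction. The 2 of 32 is a larger share than 93 of 14308, which was not tested. The median of the same-numbered differences was 0.14, 0.11 and 0.03 for numbers 1, 2 and 5. In number 1, 25 members were higher and 7 lower, in number 2, 28 and 4, and in number 5, 16 and 16. In all 3 pairs 12 members were higher and 1 lower, beside 1265 and 1216 of the 14308 genes of at least 1 CPM.

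INSIG1 (chr7:155297776-155310235, plus strand), which holds the SREBP proteins in the endoplasmic reticulum, was at 48.7, 58.1 and 67.9 CPM with senECs 1, 2 and 5 and at 61.8, 74.5 and 83.7 CPM with EGCG-treated senECs 1, 2 and 5. It was higher by 0.33, 0.35 and 0.29 on the log2(CPM + 2) scale in the 3 pairs, while the groups overlapped and its edgeR adjusted p was 1. The mean was 58.2 ± 9.60 CPM with senECs against 73.3 ± 11.0 CPM with EGCG-treated senECs (SD, n = 3), beside 81.1 ± 1.07 CPM with control ECs and 74.1 ± 4.59 CPM in mono-culture. FADS2, the delta-6 fatty acid desaturase, was at 22.6, 29.4 and 24.9 CPM with senECs and at 29.97, 44.7 and 27.0 CPM with EGCG-treated senECs, a log2 fold change of 0.40 with an interval from 0.05 to 0.76. SCD, the stearoyl-CoA desaturase, was at 78.9, 92.9 and 71.9 CPM against 91.4, 129.9 and 84.5 CPM.

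None of the members of the sterol pathway itself passed the test. SQLE, squalene epoxidase, was at 189, 227 and 178 CPM with senECs and at 215, 243 and 193 CPM with EGCG-treated senECs. SREBF2, the transcription factor SREBP2, was at 248, 257 and 221 CPM against 276, 276 and 245 CPM. Both were higher in each same-numbered pair, for SQLE by less than the spread between samples of a group. CYP51A1, the lanosterol demethylase, at 4.80, 4.40 and 2.78 CPM against 4.39, 3.88 and 1.34 CPM, was the 1 member of the list lower in each pair.

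Interferon-stimulated genes leaned higher in 2 of the 3 same-numbered pairs. Of 77 tested members, 57 were higher and 20 lower, 0 passed the test, 7 had an unadjusted p under 0.05 in the higher direction and 1 in the lower, and 4 had groups that did not overlap, all higher. The shares over all genes tested were 1.24% and 0.982% for the unadjusted p and 3.17% for groups without overlap in the higher direction. Of the 77 members, 71 were of at least 1 CPM. Among all 14308 genes of at least 1 CPM, 93 were higher and 85 lower at an unadjusted p under 0.05. In the higher direction 277 of the 14308 did not overlap. Both 7 of 77 and 4 of 77 are larger shares than 93 and 277 of 14308, which was not tested. The median log2 fold change was 0.11. The median of the same-numbered differences was -0.07 for number 1, 0.10 for number 2 and 0.26 for number 5, with 24, 55 and 52 members higher. Without EGCG-treated senECs 5 the median of the list was -0.06, in a fit that kept senECs 5.

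OAS3 (chr12:112938352-112973249, plus strand), an RNA-activated 2′-5′ oligoadenylate synthetase, was at 40.4, 35.2 and 47.9 CPM with senECs 1, 2 and 5 and at 34.8, 45.4 and 113 CPM with EGCG-treated senECs 1, 2 and 5. MX1, an antiviral GTPase, was at 8.05, 6.25 and 9.07 CPM against 5.85, 9.85 and 28.1 CPM, and its paralogue MX2 at 35.4, 37.3 and 34.5 CPM against 35.6, 46.3 and 51.2 CPM. In each of these genes EGCG-treated senECs 5 was the highest sample, and only for MX2 was number 1 not lower. Without EGCG-treated senECs 5 the log2 fold change of OAS3 went from 0.65 to -0.04 and that of OAS2, a related synthetase, from 0.82 to -0.03. That fit kept senECs 5, the highest senEC sample for both genes. The same-numbered differences of numbers 1 and 2 were -0.20 and 0.35 for OAS3 and -0.29 and 0.63 for OAS2. TRIM22, an antiviral ubiquitin ligase, did not overlap between groups, at 1.70, 1.16 and 1.69 CPM with senECs against 1.71, 2.80 and 4.87 CPM with EGCG-treated senECs. RTP4, a negative regulator of interferon signalling, was the member with an unadjusted p under 0.05 in the lower direction, at 3.41, 3.24 and 5.02 CPM against 2.74, 3.37 and 1.61 CPM.

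**Figure D3:**
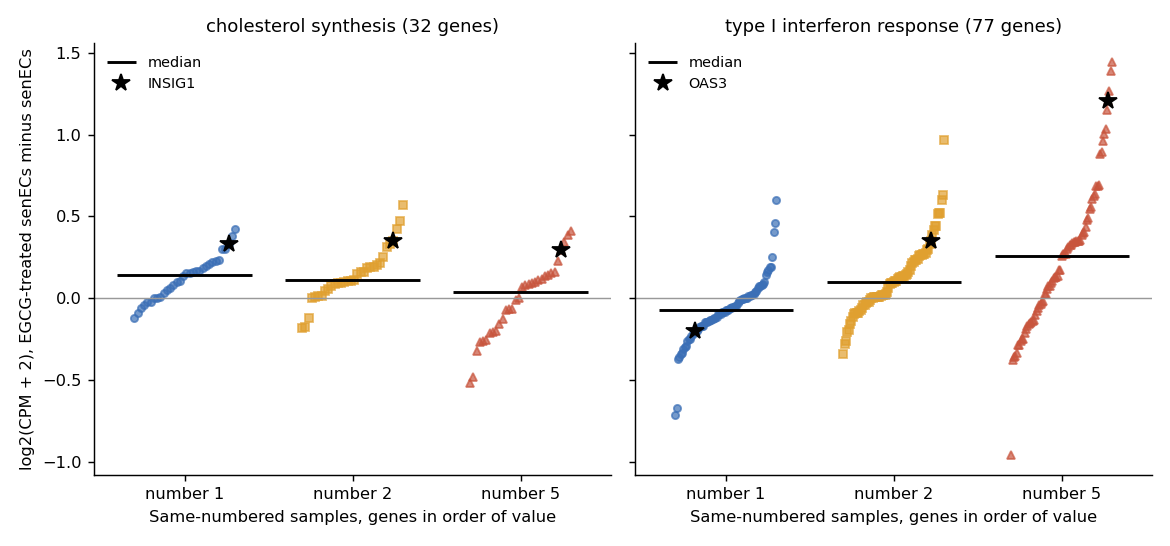
Differences in log2(CPM + 2) between EGCG-treated senECs and senECs of the same number, for all 32 tested members of the cholesterol synthesis list (left) and all 77 of the interferon list (right), each point a gene, the black line the median and the star INSIG1 or OAS3, which were picked after their values were seen. On the left 25, 28 and 16 points of numbers 1, 2 and 5 lie above 0, and on the right 24, 55 and 52.

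Promoter sequences from RefSeq (GRCh38.p14, 250 bases before to 50 after the start) were searched on both strands for the core of the interferon-stimulated response element, GAAANNGAAA, bound by the interferon-activated STAT and IRF factors, and for the sterol regulatory element of SREBP, TCACNCCAC. A promoter was given for 61 of the 77 interferon genes, of which 39 (63.9%) held the first motif, beside 3.65% of all 27305 promoters of this length. The second motif was found in 1 of 25 promoters of the cholesterol list (4%) and in 1.15% of all promoters. The sequences below show all matches before the start, in capitals, for 3 interferon genes of differing behaviour and for the 1 sterol gene, on the strand of the gene, with 2 stretches for OAS3. A match is a description and not a tested site.
OAS3, chr12:112938296-112938375, plus strand: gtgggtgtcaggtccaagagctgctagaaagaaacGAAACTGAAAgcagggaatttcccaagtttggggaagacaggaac
OAS3, chr12:112938427-112938473, plus strand: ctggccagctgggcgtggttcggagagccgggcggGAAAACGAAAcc
TNFSF10, chr3:172523573-172523652, minus strand: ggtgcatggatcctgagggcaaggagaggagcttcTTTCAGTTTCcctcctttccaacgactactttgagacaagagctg
RTP4, chr3:187368308-187368384, plus strand: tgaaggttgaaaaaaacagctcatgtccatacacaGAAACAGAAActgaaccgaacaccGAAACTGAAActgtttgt
SREBF2, chr22:41832937-41833015, plus strand: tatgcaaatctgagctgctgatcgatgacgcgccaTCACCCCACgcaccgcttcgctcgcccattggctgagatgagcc
The match in TNFSF10 reads on the opposite strand. OAS3 and TNFSF10 were higher and RTP4 lower with EGCG-treated senECs, all 3 at an unadjusted p under 0.05 and an adjusted p of 1 in edgeR.

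Genes of protein synthesis and respiration leaned lower with EGCG-treated senECs, and number 5 supplied most of the difference. Of 78 cytosolic ribosome genes, 3 were higher and 75 lower with a median log2 fold change of -0.19, and 0 passed the test. The same-numbered medians were -0.07 for number 1, 0.13 for number 2 and -0.55 for number 5, and with numbers 1 and 2 alone the median was 0.03. Without senECs 5 the median of the fit was 0.02.

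Nuclear genes of oxidative phosphorylation were lower in 69 of 75 members, with a median of -0.15 and same-numbered medians of -0.03, 0.07 and -0.46. In all 3 pairs 9 members were lower and 0 higher, beside 1216 and 1265 of the 14308 genes of at least 1 CPM. Groups did not overlap in the lower direction for 2 members, beside 241 of the 14308. ATP5MF was the 1 member with an unadjusted p under 0.05, at 105, 114 and 139 CPM against 94.7, 109 and 97.7 CPM. The 39 proteasome genes were lower in 36, with a median of -0.12 and same-numbered medians of -0.07, 0.04 and -0.34. The 13 protein genes of mitochondrial DNA were all lower in number 5 (median -0.50), all higher in number 2 (median 0.37) and lower in 12 of 13 in number 1. MT-CO1, a subunit of cytochrome c oxidase, was at 8340 CPM or more with each senEC sample and at 8222, 10262 and 7188 CPM with EGCG-treated senECs 1, 2 and 5. RPS29, a small-subunit ribosomal protein, was at 207, 217 and 373 CPM with senECs and at 197, 243 and 181 CPM with EGCG-treated senECs. The summed level of the ribosome list was 71798 CPM in senECs 5 and 46328 to 56163 CPM in the other 5 samples, and that of the nuclear oxidative phosphorylation list 11597 CPM in senECs 5 and 8435 to 9626 CPM in the others. The mitochondrial DNA list stood lowest in EGCG-treated senECs 5, at 28626 CPM against 34559 to 45274 CPM. A list of 14 reference genes, used as a check, also had a same-numbered median of -0.24 in number 5, and the part of these 2 samples in the difference was not tested.

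Antioxidant and NRF2 target genes were lower in 44 of 52 members, with a median of -0.11 and same-numbered medians of -0.02, 0.00 and -0.26. None was called, and SRXN1, sulfiredoxin, was higher at an unadjusted p under 0.05, at 2.22, 1.91 and 1.93 CPM with senECs against 2.74, 2.73 and 3.54 CPM with EGCG-treated senECs. GSR, glutathione reductase, was at 162, 157 and 163 CPM against 146, 149 and 144 CPM, with groups that did not overlap. HMOX1, haem oxygenase 1, was at 4.70, 18.0 and 25.2 CPM against 5.00, 10.8 and 17.1 CPM, and varied more between numbers than between groups. CYBB, the catalytic subunit of the phagocyte NADPH oxidase, was at 59.0, 130 and 233 CPM against 63.0, 121 and 269 CPM.

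**Figure D4:**
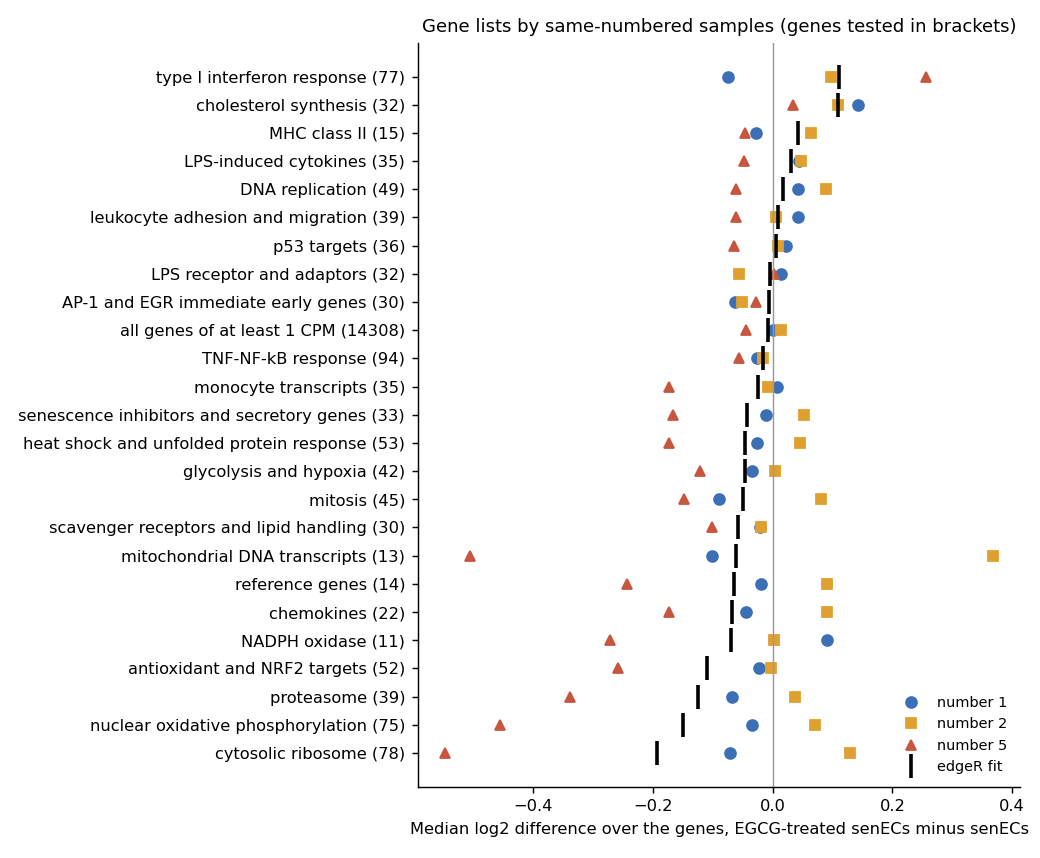
Median log2 difference over the tested genes of each list, EGCG-treated senECs minus senECs, for the same-numbered pairs 1 (circle), 2 (square) and 5 (triangle), with a bar for the edgeR fit of all samples. For the cytosolic ribosome the points lie at -0.07, 0.13 and -0.55, and for cholesterol synthesis at 0.14, 0.11 and 0.03.

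Cell cycle and stress lists had medians close to 0, though some leaned one way. DNA replication genes had a median of 0.02 over 49 members and mitosis genes a median of -0.05 over 45, and p53 targets, which respond to DNA damage, a median of 0.01 over 36. The medians were -0.05 for 53 heat shock and unfolded protein response genes, -0.05 for 42 glycolysis and hypoxia genes, -0.06 for 30 scavenger receptor and lipid handling genes, -0.04 for 33 senescence inhibitor and secretory genes, 0.05 for 9 metallothioneins and -0.07 for 11 NADPH oxidase genes, and none of these 6 lists held a gene with an unadjusted p under 0.05. Mitosis genes were higher in 10 and lower in 35, with same-numbered medians of -0.09, 0.08 and -0.15, and DNA replication genes higher in 31 and lower in 18. Heat shock and unfolded protein response genes were higher in 14 and lower in 39, with a median of -0.17 in number 5. For glycolysis and hypoxia genes these values were 12, 30 and -0.12. Of the p53 targets, RPS27L was lower at an unadjusted p under 0.05, at 38.6, 43.0 and 68.9 CPM with senECs against 38.7, 43.7 and 34.3 CPM with EGCG-treated senECs. Of the 39 leukocyte adhesion genes 1 had an unadjusted p under 0.05, and this was ICAM2, a ligand of the leukocyte integrin LFA-1. In the MHC class II list, 1 of 15 genes did, HLA-DOB, which was lower in the 0.696 to 1.56 CPM range.

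Among genes of at least 1 CPM that differed one way in all 3 pairs, those with the smallest unadjusted p were mostly of low level. ST5 was at 1.65, 0.868 and 0.725 CPM with senECs 1, 2 and 5 and at 2.80, 2.10 and 3.05 CPM with EGCG-treated senECs, a log2 fold change of 1.28 with an interval from 0.56 to 1.99. ICAM2 was at 1.65, 0.868 and 0.786 CPM with senECs and at 2.68, 2.03 and 2.09 CPM with EGCG-treated senECs, beside 1.24 ± 0.0959 CPM with control ECs and 1.91 ± 0.354 CPM in mono-culture (SD, n = 3). DZANK1 (chr20:18383367-18467281, minus strand), at 18.8, 20.6 and 16.7 CPM against 23.9, 24.7 and 23.2 CPM, had a log2 fold change of 0.35 with an interval from 0.09 to 0.61. All 3 had groups that did not overlap, and all had an edgeR adjusted p of 1.

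In the lower direction, MRPL51 and MRPL23, proteins of the mitochondrial ribosome, had groups that did not overlap. MRPL51 was at 36.4, 39.9 and 49.8 CPM with senECs and at 33.3, 34.1 and 30.1 CPM with EGCG-treated senECs. MRPL23 (chr11:1947278-1984522, plus strand) was at 25.2, 29.9 and 25.3 CPM with senECs and at 19.1, 22.4 and 19.7 CPM with EGCG-treated senECs, a log2 fold change of -0.39 with an interval from -0.68 to -0.11. Its level was 17.9 ± 2.57 CPM with control ECs and 18.8 ± 1.48 CPM in mono-culture (SD, n = 3). MAP3K9, a kinase upstream of JNK, lay between 0.429 and 1.27 CPM with EGCG-treated senECs against 1.70 to 2.54 CPM with senECs, and PLCB4, a phospholipase C, between 0.268 and 0.792 CPM against 1.04 to 1.81 CPM.

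**Figure D5:**
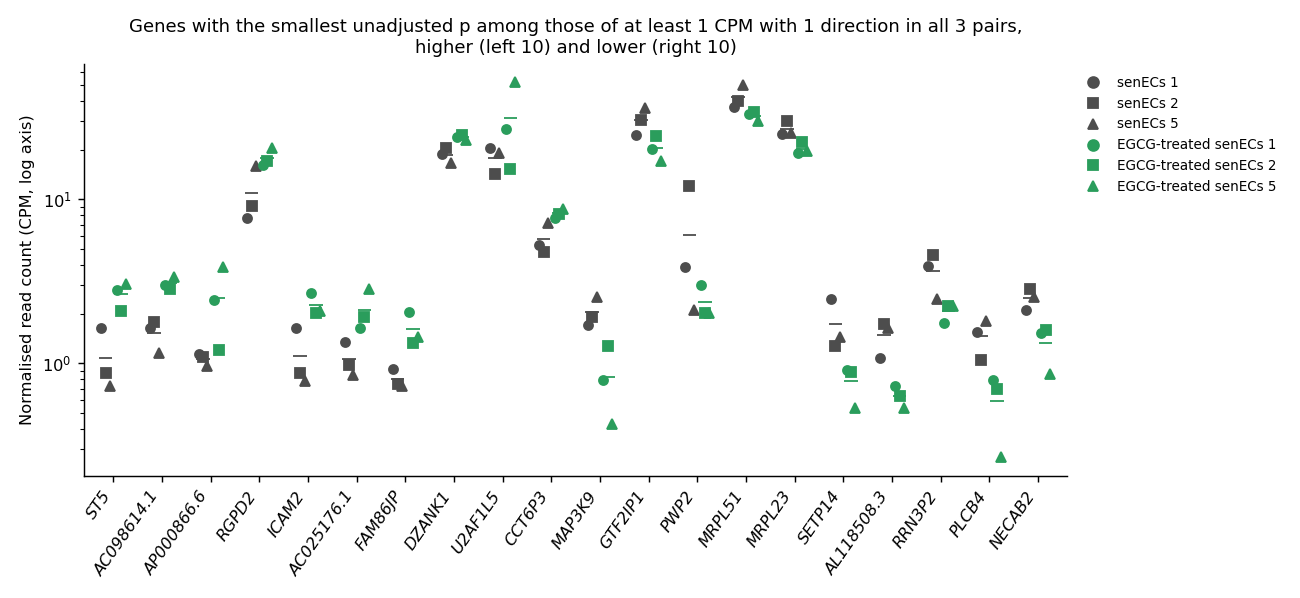
Normalised read counts in CPM on a log axis for the 10 genes in each direction with the smallest unadjusted p among genes of at least 1 CPM that differed one way in all 3 pairs, with symbols and colours for group and number as given in the legend and a line at each group's mean. Most lie under 10 CPM, and the green points lie above the grey points on the left for ICAM2 and below them on the right for MRPL23.

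Several of the named genes have near-identical copies, between which the reads of the study could be split in ways that differ between samples. Of 30 named genes, 10 shared more than 10% of the 150-base windows of their GENCODE release 29 transcripts with another gene, 150 bases being the read length, and 9 shared more than 50%. RGPD2 shared 88.6% of its windows with RGPD1, U2AF1L5 85.1% with U2AF1 and GTF2IP1, a pseudogene, 81.2% with GTF2I. These genes are uncertain as single genes.

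GTF2IP1 was at 24.7, 30.6 and 36.0 CPM with senECs and at 20.2, 24.4 and 17.2 CPM with EGCG-treated senECs, without overlap. The sum of GTF2IP1 and GTF2I, the general transcription factor TFII-I, was 96.9, 94.2 and 88.7 CPM against 93.5, 96.2 and 86.1 CPM, and the groups overlapped. SPCS2P4, a pseudogene of the signal peptidase subunit SPCS2, was at 4.13, 3.99 and 7.98 CPM against 10.9, 20.9 and 7.23 CPM, while the sum of SPCS2P4 and SPCS2 was 95.5, 116 and 141 CPM against 92.4, 121 and 109 CPM. U2AF1L5 with U2AF1, the splicing factor that reads the 3′ splice site, summed to 31.8, 43.1 and 33.4 CPM against 46.3, 23.5 and 61.3 CPM. For RGPD2, by contrast, the sum with RGPD1 kept its direction, at 12.2, 11.0 and 19.4 CPM against 22.6, 19.3 and 23.7 CPM, and the groups overlapped by a small margin. The sum of RRN3P2 and AC009093.9 also kept its direction, at 4.28, 4.86 and 2.72 CPM against 2.07, 2.48 and 2.25 CPM, without overlap. Other pairs, not given here, went either way.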

How the data were processed

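The deposited table holds whole-number counts of reads for each gene symbol, which the authors did not normalize, made from 150-base paired reads aligned with HISAT2 to hg38, according to the submitters' processing notes and the study's methods. The counting program is not given in the sources used here. A further 4 columns of the table match no described sample and were not used. All 57169 distinct symbols match GENCODE release 29. Samples were grouped by their labels, and where no label names separate cultures, p-values measure only the spread between these samples, which may be technical.

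EdgeR 4.0.16 (R 4.3.3; quasi-likelihood, TMM, Benjamini-Hochberg, adjusted p of 0.05) was fitted to all 12 samples with group as the only term, over the genes that pass the study's filter (a sum of 10 counts or more). The study used DESeq2, run here (1.42.0) as an alternative. Intervals are 95%, from edgeR's F. CPM use TMM library sizes, and differences of same-numbered samples use log2(CPM + 2). The scripts were tested on simulated data. Tables and figures used Python 3.11.15, pandas 2.3.3 and matplotlib 3.10.9.

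Named genes are those called in the edgeR fit or in its fit with the replicate number as a block, the 10 a direction with the smallest unadjusted p at a mean of at least 1 CPM and 1 direction in all 3 pairs (without symbols shared by several rows), the 3 members of each of 28 lists with the highest CPM, the study's inflammatory genes, and list members with an unadjusted p under 0.05. Some members of lists were named after their values were seen. The comparison and the lists were chosen with earlier results of these data known. Some named genes are not reported here.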

Additional observations from a re-analysis of the deposited data

How the results depend on the processing

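The count of called genes was 0 with DESeq2, with DESeq2's size factors in edgeR (a shift of 0.01 in log2 fold change), with at least 10 counts in each sample, with edgeR's own filter, with only the 6 samples compared and without any 1 of the 12 samples. It was 14 when all genes with a count were tested, 8 of them shared with the replicate block fit; the cause was not tested. The number of genes whose 95% interval lay within 2-fold was 12788 of all genes tested and ranged from 11981 to 12317 when 1 of the 6 samples was left out. The number of genes with an unadjusted p under 0.05, an alternative chosen after seeing the data, ranged from 437 to 1145 when 1 of the 6 was left out, with 1145 without senECs 1 and 940 without EGCG-treated senECs 2.

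The labels give the samples shared numbers and do not say whether these stand for shared cultures or batches. The deviations of same-numbered samples correlated at 0.49 for number 1, 0.05 for number 2 and 0.29 for number 5, where every value over 0.1 was required to treat the numbers as pairs, and EGCG-treated senECs 2 correlated best with senECs 5 (0.16). With the replicate block edgeR called 13 genes (8 higher, 5 lower), 7 with only the 6 samples, and 20, 41 and 10 without the samples numbered 1, 2 and 5 in both groups. DESeq2 with the replicate block called 85 genes, of which 1 was among those 13. The 13 include S100A8, S100A9, OAS3, AKAP9 and genes with near-identical copies.

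Leaving out 1 sample turned the direction of the log2 fold changes of OAS3 (from -0.037 to 0.96 over the samples left out), OAS2 (-0.029 to 1.21), S100A8 (-2.20 to 0.81), S100A9 (-1.33 to 0.40) and AKAP9 (-0.60 to 0.053). Each negative end for OAS3 and OAS2 and the positive end for AKAP9 came without EGCG-treated senECs 5, and the positive ends for S100A8 and S100A9 came without senECs 5. Without the samples numbered 5 in both groups and with the replicate block, RPS29 (0.052) and RPS27L (0.014) turned positive. Over 43 named genes, 966 other values under alternatives kept their direction and side of the threshold and 56 newly passed it. List medians moved by more than the spread of the same-numbered medians in 69 of 252 cases. The counts limit genes under 1 CPM most.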
